A study of Bos taurus with 55 samples.

Results

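The genes of respiratory complex I were followed in mammary biopsies of dairy cows fed vegetable oils and then a control diet. A gene was taken if its symbol began with NDUFA, NDUFB, NDUFC, NDUFS, NDUFV or NDUFAF. This gave 36 of the 6636 genes named on the array. They comprised 32 subunits of the enzyme, 5 of them core and 27 supernumerary, and 2 assembly factors, NDUFAF3 and NDUFAF6. NDUFA4, which is now assigned to complex IV, and its relative NDUFA4L2 also carry the name and were kept apart as 2 related genes. Another 11 symbols of the family had no named row and were not analysed here. They were the subunits NDUFA2, NDUFA12, NDUFB2, NDUFS8 and NDUFV2 and the assembly factors NDUFAF1, NDUFAF2, NDUFAF4, NDUFAF5, NDUFAF7 and NDUFAF8.

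Complex I takes electrons from NADH, passes them along iron-sulfur clusters to ubiquinone and pumps protons out of the mitochondrial matrix. The enzyme is L-shaped, with a matrix arm that holds the NADH site and the electron path and a membrane arm that pumps protons. Core subunits carry out catalysis, supernumerary subunits surround and stabilise them, and assembly factors help to build the enzyme without staying in it. The lactating mammary epithelium is rich in mitochondria, which supply ATP for the synthesis and secretion of milk.

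The study asked what dietary unsaturated fatty acids do to gene expression in the gland of 28 Holstein-Friesian cows in mid-lactation. In period I, which lasted 23 days, the concentrate carried 2.7% of rapeseed oil, soybean oil, linseed oil or an even mixture of these, with 7 cows per oil. In period II all cows received a control diet with no added oil for 28 days, and every cow grazed ryegrass and clover by day throughout. Biopsies were taken on the last day of each period, at a mean of 176 days in milk for the oil diets and 204 days for the control diet. Each oil was fed first and the control diet second in every cow, so that diet, order of the periods and stage of lactation cannot be told apart. A change is given below as the oil period minus the control period in the same cow, on the log2 intensity scale, and "rose" means higher in the oil period although that period came first.

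The data comprised 28 arrays of period I and 27 of period II, since 1 linseed cow had an array of period I only. The 6 genes measured for milk proteins and lactose synthesis, which mark the lactating gland, had a summed intensity of 31248 to 86144 in the oil period and 29683 to 89636 in the control period. Array names carried 2 prefixes, taken as array batches: 25 arrays of period I and 2 of period II were in batch 1, and 3 of period I and 25 of period II in batch 2. In all, 7 arrays from 6 cows stood apart, with a mean correlation to the other arrays of 0.911 to 0.951 against at least 0.961 for the other 48. Both period II arrays of batch 1 were among these. Each array is a mixture of cell types, in which fewer cells of a type and less RNA per cell cannot be told apart.

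Subunits of complex I were higher in the oil period. Of the 32 subunits, 19 rose, 0 fell and 13 did not pass the test (limma with the cow as a block, adjusted p under 0.05 over 10680 probe sets). That was 59.4% of the subunits, against 18.8% of all probe sets called higher and 15.6% called lower. The median change over the subunits was 0.24, against 0.03 over all probe sets. A positive change was found for 29 of the 32 (90.6%), against 55.7% of all probe sets. The called changes were modest, from 0.16 for NDUFS5 to 0.69 for NDUFS4, which correspond to 1.12-fold and 1.62-fold. For no member did the arrays of the oil period lie wholly apart from those of the control period, which was not counted over all probe sets.

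**Figure D1:**
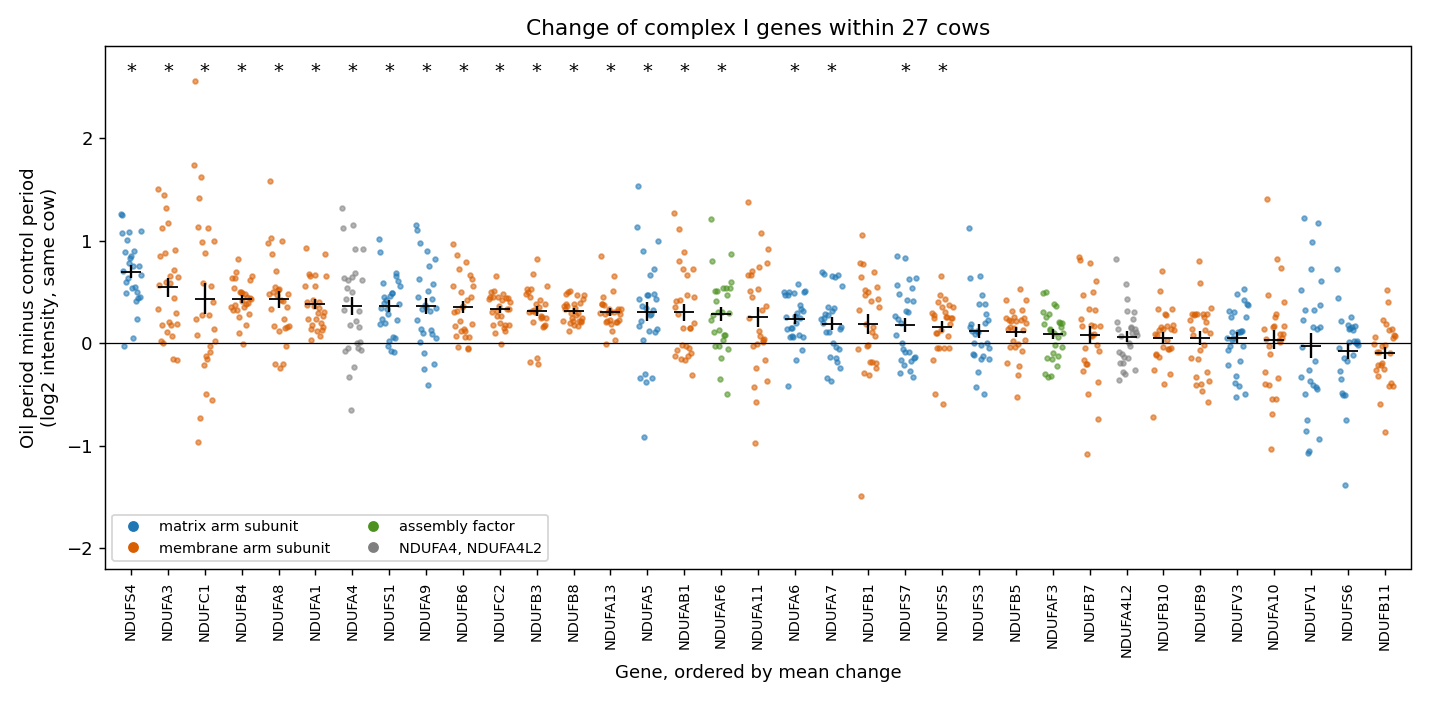
Change of 35 of the genes within 27 cows, as oil period minus control period in log2 intensity. Each point is a cow, the black bars give the mean with its standard error, asterisks mark genes with an adjusted p under 0.05, and colours give the role. The 21 asterisks all stand over positive means, while single cows of many genes lie below 0.

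Among the core subunits, which sit in the matrix arm in this set, 2 of 5 rose and the median change was 0.12. NDUFS1, the largest iron-sulfur subunit, showed the clearest change. Its log2 level ran from 7.22 over a median of 7.68 to 8.12 in the oil period and from 6.94 over 7.37 to 7.84 in the control period. The periods overlapped broadly, but 24 of 28 oil arrays lay above the control median. Its change was 0.36 ± 0.06 (SE), with an adjusted p of 1.93e-05, and it was positive in 24 of 27 cows. NDUFS7, which holds the last iron-sulfur cluster before ubiquinone, rose by 0.18 ± 0.07 (adjusted p = 0.0458), yet was higher in only 15 cows and ended on the other side of 0 when array batch was added to the fit (-0.04). NDUFS3, of the ubiquinone-binding module, changed by 0.12 ± 0.07 (adjusted p = 0.173). NDUFV1, the subunit that binds NADH and its flavin, had a change of -0.03 ± 0.12 (adjusted p = 0.886). Its levels spread widely, from 4.92 over 6.09 to 6.82 in the oil period and from 4.13 over 6.19 to 6.79 in the control period.

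The supernumerary subunits of the matrix arm contributed the largest single change. NDUFS4, a subunit that steadies the NADH-oxidising end of the enzyme and whose loss causes Leigh syndrome in humans, ran from 7.45 over 7.89 to 8.53 in the oil period. In the control period it ran from 6.54 over 7.21 to 7.92. All 28 oil arrays exceeded the control median, and 24 of 27 control arrays lay below the lowest oil array. The change was 0.69 ± 0.06 (adjusted p = 4.84e-08) and positive in 26 of 27 cows, but 0.06 ± 0.13 and not called with array number in the fit, and -0.02 there without the 6 cows with an array apart. Of the other members of this group, NDUFA9 rose by 0.36 ± 0.08, NDUFA5 by 0.31 ± 0.10, NDUFA6 by 0.24 ± 0.05 and NDUFA7 by 0.19 ± 0.06, with adjusted p-values from 0.000503 to 0.0190. NDUFV3 (0.05) and NDUFS6 (-0.08) did not pass. Over the whole matrix arm, core subunits included, 7 of 12 rose with a median change of 0.18.

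The membrane arm had 12 of 20 subunits rising and a median change of 0.30. All its subunits measured here are supernumerary, since the core ones are encoded by mitochondrial DNA. NDUFB8 and NDUFB4, both of the outer part of the arm, had the smallest p-values among them. NDUFB8 ran from 9.42 over 9.58 to 9.85 in the oil period and from 8.93 over 9.30 to 9.49 in the control period. Its change of 0.31 ± 0.03 (adjusted p = 6.43e-08) was positive in all 27 cows, and 22 of 28 oil arrays exceeded the highest control array. NDUFB4 ran from 8.43 over 8.98 to 9.38 in the oil period and from 8.01 over 8.52 to 8.85 in the control period. The change was 0.43 ± 0.04 (adjusted p = 6.35e-08), with 26 of 27 cows higher.

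NDUFB3 and NDUFB6 belong to the same part of the arm and moved by similar amounts. NDUFB3 ran from 8.76 over 9.05 to 9.34 in the oil period and from 8.35 over 8.70 to 9.27 in the control period, with a change of 0.31 ± 0.05 (adjusted p = 2.08e-05). NDUFB6 ran from 7.90 over 8.26 to 8.71 in the oil period and from 7.44 over 8.01 to 8.48 in the control period, with a change of 0.35 ± 0.06 (adjusted p = 4.94e-05). Each was higher in 24 of 27 cows. The remaining 6 NDUFB subunits did not pass the test, and among them NDUFB11 had the lowest change of the whole set, -0.10 ± 0.06 (adjusted p = 0.209). In all, 4 of 10 NDUFB subunits rose, against 9 of 11 NDUFA subunits, 4 of 9 NDUFS and NDUFV subunits and both NDUFC subunits. The difference between these naming groups was not tested.

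In the part of the membrane arm nearer the matrix arm, NDUFC2 had one of the smallest p-values of the family. Its level ran from 10.17 over 10.42 to 10.72 in the oil period and from 9.80 over 10.11 to 10.29 in the control period, and 23 of 28 oil arrays exceeded every control array. The change was 0.33 ± 0.04 (adjusted p = 2.26e-07), positive in 26 cows. NDUFC1 had a larger mean change, 0.43 ± 0.15, but cows differed so much, from -0.96 to 2.56, that its adjusted p was 0.0269 and only 18 cows were higher.

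NDUFA13, also known as the cell-death regulator GRIM-19, ran from 7.88 over 8.12 to 8.48 in the oil period and from 7.43 over 7.84 to 8.03 in the control period. Its change was 0.31 ± 0.04 (adjusted p = 1.40e-06), with 26 cows higher. NDUFA1, a small membrane protein needed to assemble the enzyme in hamster cells, ran from 9.62 over 9.92 to 10.36 in the oil period and from 9.20 over 9.54 to 9.89 in the control period. It was higher in all 27 cows, by 0.38 ± 0.05 (adjusted p = 2.59e-06). NDUFA3, another small membrane subunit, was dim, from 3.57 over 4.40 to 5.25 in the oil period and from 3.27 over 3.83 to 4.60 in the control period. Its change was 0.54 ± 0.09 (adjusted p = 4.99e-05) and positive in 24 cows, and its groups overlapped more than those of NDUFA13 or NDUFA1.

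Another 3 membrane arm subunits rose. NDUFA8, on the intermembrane-space side, changed by 0.43 ± 0.08 (adjusted p = 0.000161) and was higher in 23 cows. NDUFAB1, the mitochondrial acyl carrier protein, which also serves fatty acid synthesis inside mitochondria, changed by 0.30 ± 0.08 (adjusted p = 0.00481) with 17 cows higher. NDUFS5 changed by 0.16 ± 0.06 (adjusted p = 0.0258) with 20 cows higher. NDUFA11 missed the threshold with 0.25 ± 0.10 (adjusted p = 0.05004), and NDUFA10 was near 0 (0.03 ± 0.09).

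Of the assembly factors, NDUFAF6 rose and NDUFAF3 did not pass the test. NDUFAF6 was very dim, from 1.73 over 2.25 to 2.86 in the oil period and from 1.57 over 2.14 to 2.28 in the control period. Its change was 0.28 ± 0.07 (adjusted p = 0.00292), with 21 of 27 cows higher, and 12 of 28 oil arrays exceeded every control array. NDUFAF3, which acts early in building the ubiquinone module, ran from 6.38 over 6.92 to 7.24 in the oil period and from 5.99 over 6.87 to 7.27 in the control period. Its change was 0.08 ± 0.05 (adjusted p = 0.187), and no oil array lay above the highest control array. The related gene NDUFA4 rose by 0.36 ± 0.09 (adjusted p = 0.00279, 20 cows higher), whereas NDUFA4L2, dim in both periods, changed by 0.06 ± 0.06 (adjusted p = 0.395).

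**Figure D2:**
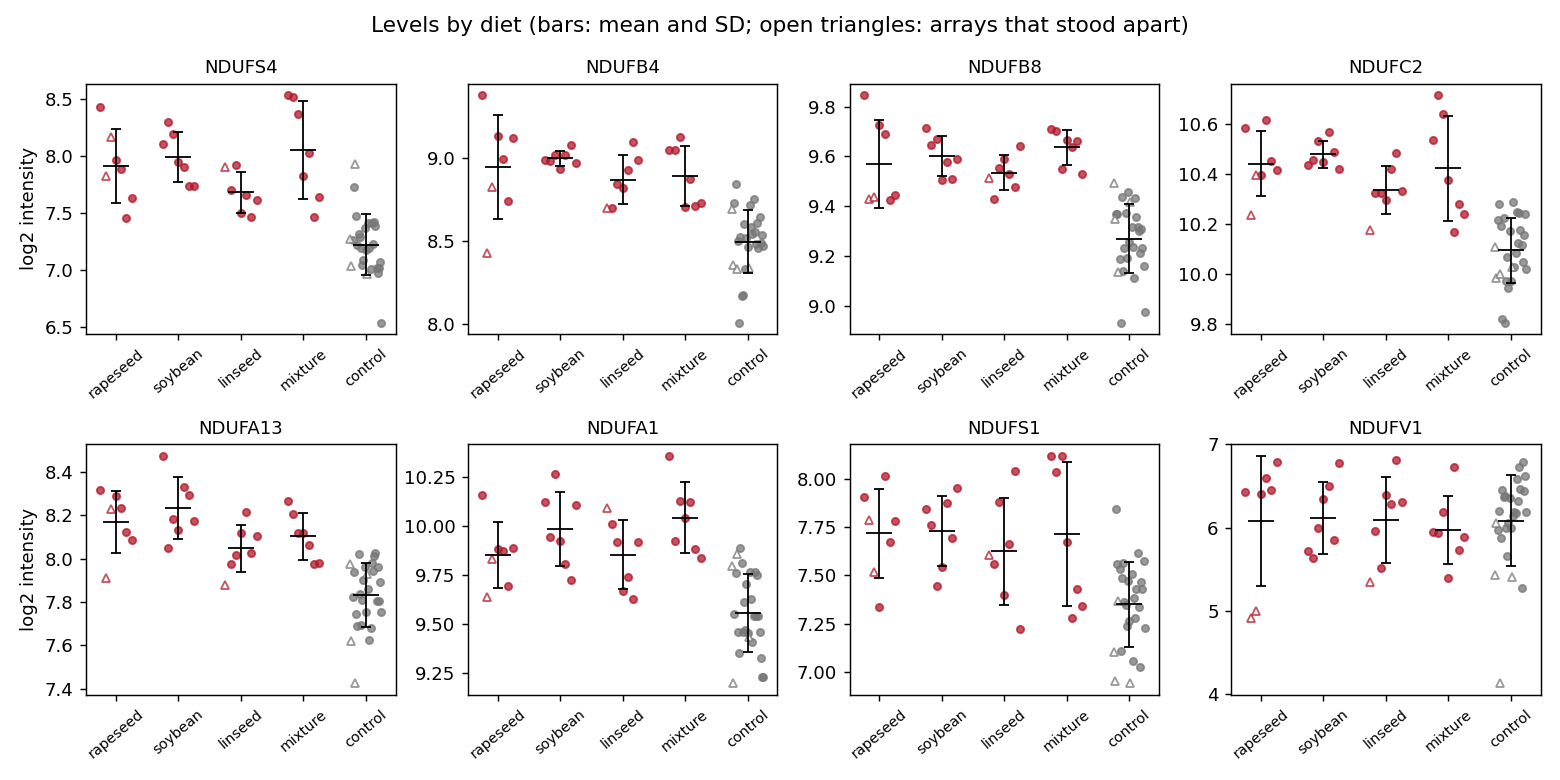
Log2 intensity of 8 subunits on each array, with oil diets left of the control diet, bars for the mean and SD, and open triangles for the arrays that stood apart (each panel has its own scale, which does not start at 0). NDUFS4, NDUFB8 and NDUFC2 sit mostly above the control arrays on every oil, while the ranges of NDUFV1 overlap between all groups, and its lowest arrays on rapeseed oil, linseed oil and the control diet are open triangles.

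The shift was present in most animals. In each cow the median change over the 32 subunits was taken, and it ran from -0.01 to 0.49 with a median of 0.24. It was above 0 in 25 of 27 cows, and above the median of all probe sets of that cow in 26. Between 14 and 30 of the 32 subunits were higher in a single cow. Cow 16 on the oil mixture, with 14 subunits higher, and cow 8 on linseed oil, with 15, stood at the low end, and cow 18 on soybean oil, with 30, at the high end. The 6 cows with an array that stood apart had medians of 0.15 to 0.48, inside the range of the other 21.

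**Figure D3:**
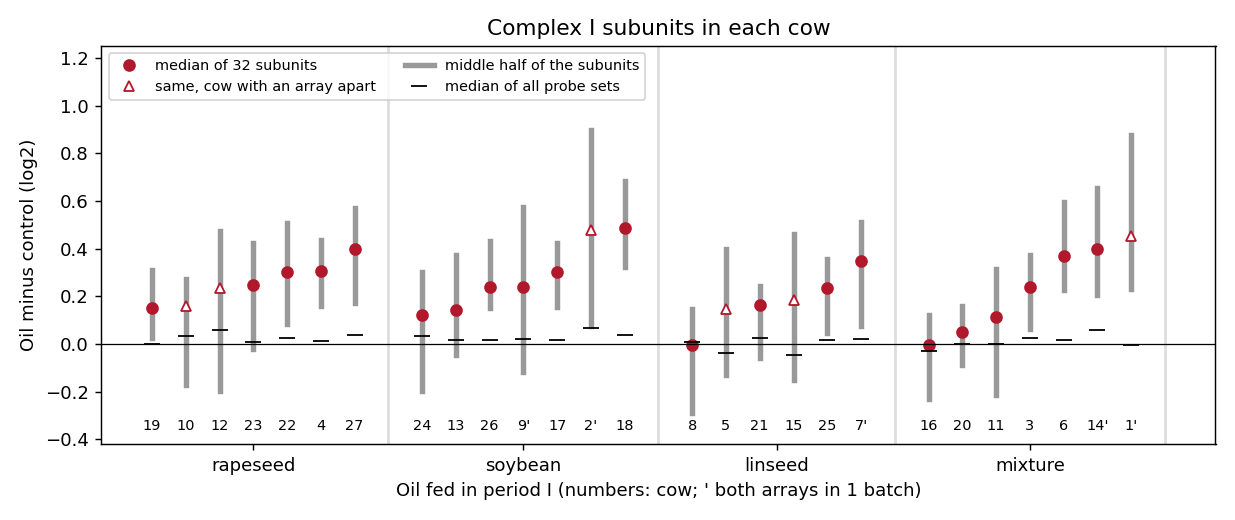
Median change over the 32 subunits in each cow, by oil (red), with the middle part of the subunits as grey bars running from the lower to the upper quartile, and the median over all probe sets of the same cow as a black dash. All but 2 medians lie above 0, and all but that of cow 8 lie above the cow's own black dash.

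The subunits varied together from cow to cow. Over the 496 pairs of subunits, the correlation of their changes across 27 cows had a median of 0.22, and 81.7% of pairs were above 0. Over all pairs of probe sets the median was 0.004 and 50.4% were above 0. Without the 6 cows with an array apart the median was 0.24, and 87.1% of pairs were above 0. These values share the same arrays and cows, and describe them without a test. All 32 subunits had a mean log2 level of at least 4, but only 4441 of the 10680 probe sets did. The background thus holds many dim probe sets, and none of like brightness was taken. The closest pairs were NDUFA10 with NDUFV1 (0.77, and 0.64 without the 6 cows) and NDUFB3 with NDUFS4 (0.75, and 0.76 without them). The pair NDUFA5 and NDUFB7 reached 0.70 with all cows but 0.27 without the 6. NDUFB10, a subunit on the intermembrane-space side, ran against several others, for example at -0.60 with NDUFS6, which became 0.13 without the 6 cows.

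On the 7 arrays that stood apart, more subunits lay low than high. Relative to the median of the other arrays of their period, 22 of 32 subunits (68.75%) had a median below 0 and 10 above, against 51.2% of all probe sets below 0. The median over the subunits was -0.18. NDUFV1 was lower on all 7, by a median of 0.94, and NDUFA5 and NDUFS6 were also lower on all 7. NDUFB10 was higher on all 7, by a median of 0.55. Of the genes with the smallest p-values, NDUFS4 had a median of 0.01, NDUFB8 of -0.08, NDUFA1 of -0.09, NDUFC2 of -0.12, NDUFS1 of -0.18, NDUFB4 of -0.19 and NDUFA13 of -0.21 on this measure. NDUFC2 was lower on all 7 arrays and NDUFB4 on 6. The same arrays differed in other gene groups. Genes of milk fat synthesis and secretion had a mean log2 level of 5.60 to 8.46 on them and of 8.51 to 9.66 on the other 48, milk protein and lactose genes 11.9 to 13.5 against 13.4 to 13.8, and fibroblast and matrix genes 8.85 to 10.2 against 6.93 to 9.18. The part of this in the complex I levels was not tested. Without the 6 cows 19 subunits rose, the same count as before, where 18.9% of all probe sets were called higher, and the median change was 0.28. The genes called were not all the same, since over all members 2 lost their call and 2 gained one.

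The split of arrays between batches and the running number in the array names went with the periods, and the subunit result was recomputed with both. Within batch 1, where the control side is 2 arrays that both stood apart, the median subunit change was 0.36 and 28 of 32 changes were positive. There 4 passed the test, where 1.94% of all probe sets were called higher. Within batch 2, with 3 oil arrays against 25, the median was 0.20 and 26 were positive. There 4 passed, where 2.13% of all probe sets were called higher. For 5 cows a single batch held both arrays, and there the median over subunits in each cow lay between 0.24 and 0.48. The highest, 0.45 and 0.48, were those of cows 1 and 2, whose control arrays stood apart. In cows 7, 9 and 14 the medians were 0.35, 0.24 and 0.40. The part of the arrays apart in the values from these 5 cows was not tested. Fitting these 5 cows alone gave 27 positive changes and a median of 0.41, with 0 called (0% of all probe sets called higher). At an unadjusted p under 0.05, 18 were higher, where 2191 of 10680 probe sets lay under 0.05 in either direction. With batch as a term beside the cow, a fit that rests on the same 5 cows, 16 rose, where 8.01% of all probe sets were called higher. Positive changes were not counted over all probe sets in the fits by batch. The median over all probe sets was 0.04 within batch 1 and 0.03 in the others.

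NDUFS4 changed by 0.74 ± 0.23 within batch 1 (adjusted p = 0.0559) and by 0.78 ± 0.17 within batch 2 (adjusted p = 0.0112). NDUFC2 passed within batch 1 with 0.39 ± 0.11 and not within batch 2 with 0.22 ± 0.09. NDUFA1 changed by 0.42 ± 0.16 within batch 1 (adjusted p = 0.0931) and by 0.47 ± 0.12 within batch 2 (adjusted p = 0.0248). These fits leave the cow out, because few cows allow a comparison inside a batch. Both control arrays of batch 1 stood apart, and NDUFC2 was lower on all 7 such arrays.

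Array number separated the subunits from one another. The control array of each cow carries a number 28 above that of its oil array, and the numbers follow those of the cows, so that a fit with it has to leave the cow out. Numbers ran from 1 to 28 in period I and from 29 to 55 in period II, with no overlap. The change in that fit thus extends a slope along the order of the cows across the periods, and array order and differences between cows cannot be told apart in it. In that fit the median subunit change was 0.25 and 29 were positive, but 8 passed, of which 5 were among the 19. Of all probe sets, 3.73% were called higher there. NDUFB4 (0.49 ± 0.11), NDUFA13 (0.36 ± 0.08), NDUFC2 (0.34 ± 0.08), NDUFA7 and NDUFS7 were called in both fits. NDUFS4 was 0.06 ± 0.13 there, NDUFA1 0.09 ± 0.10, NDUFA3 0.05 ± 0.19, NDUFB3 0.06 ± 0.09 and NDUFS1 0.21 ± 0.13, none of them called. NDUFS4 had the steepest negative slope of the subunits along array number within periods, -0.23 ± 0.04 per 10 arrays. NDUFV1 had the steepest positive one, 0.32 ± 0.08, and was called higher with array number in the fit (0.86 ± 0.25, adjusted p = 0.0380). Leaving out the 6 cows as well gave 0 calls among the subunits, where 0.0749% of all probe sets were called higher. There were 29 positive changes, with a median of 0.18. At an unadjusted p under 0.05, 9 subunits were higher, where 1272 of 10680 probe sets lay under 0.05 in either direction. Positive changes were not counted over all probe sets in either fit with array number. The median over all probe sets was 0.01 in both.

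**Figure D4:**
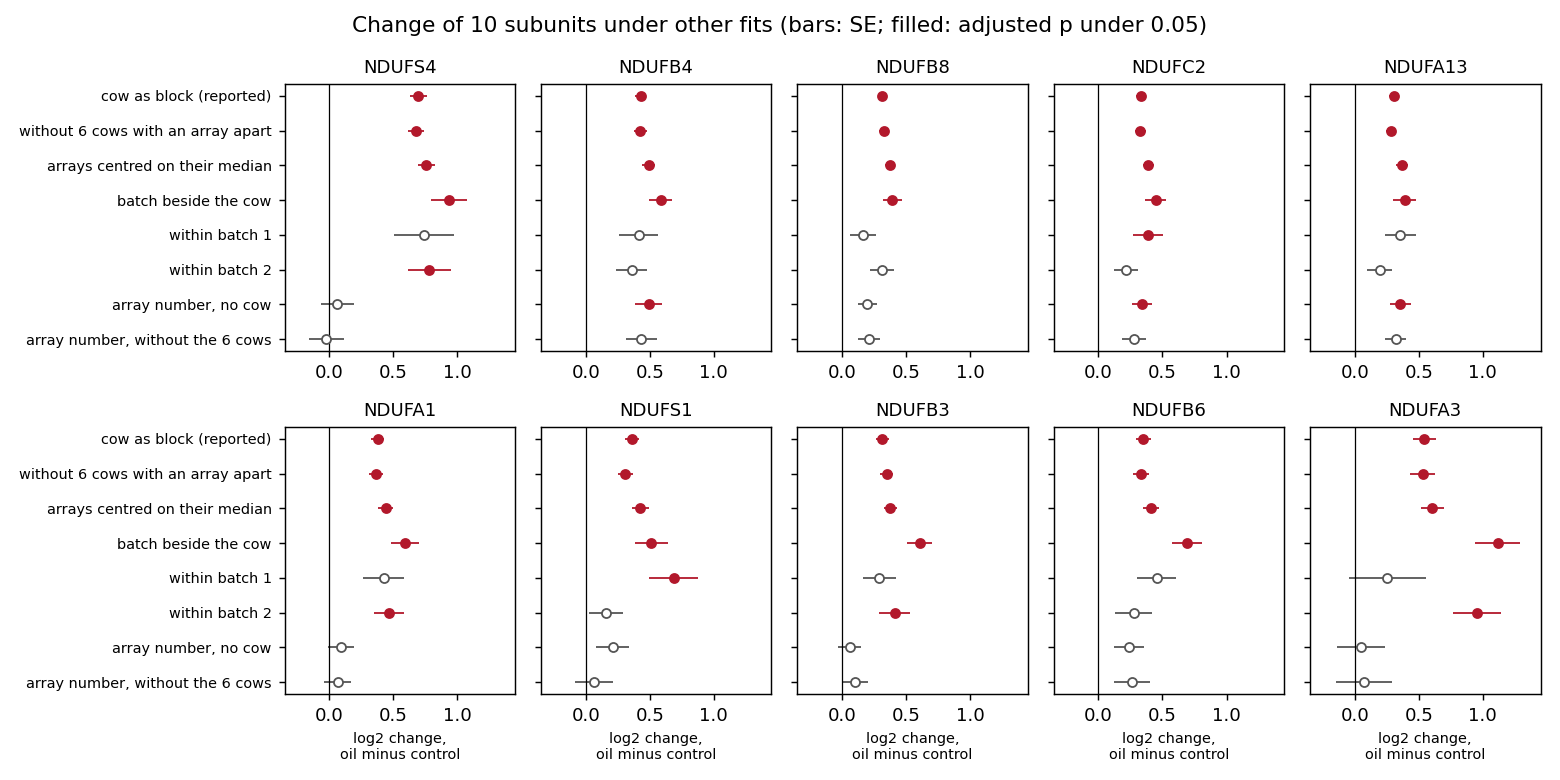
Change of 10 subunits under 8 fits, as oil minus control in log2 intensity with standard errors; filled points have an adjusted p under 0.05. NDUFB4, NDUFC2 and NDUFA13 keep a similar size in the fits with array number, while NDUFS4, NDUFA1, NDUFB3 and NDUFA3 come close to 0 there and not in the fits by batch.

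All 4 oils had a positive median over the subunits. Soybean oil had the most calls, with 14 of 32 subunits higher (43.8%, against 6.29% of all probe sets) and a median change of 0.36. Rapeseed oil had 8 (25.0%, against 1.54%) and a median of 0.22. Linseed oil, with 6 cows, had 2 (6.25%, against 0.403%) and a median of 0.17. The mixture had 2 (6.25%, against 0.131%) and a median of 0.27. No subunit was called lower on any oil, where 2.33% of all probe sets were called lower on rapeseed oil, 7.22% on soybean oil, 0.89% on linseed oil and 0.0187% on the mixture. The median over all probe sets was 0.05 on rapeseed oil, 0.04 on soybean oil, -0.01 on linseed oil and 0.01 on the mixture. The arrays that stood apart were spread unevenly over the oils and periods. They were the oil arrays of cows 10 and 12 on rapeseed oil, and the control arrays of cow 2 on soybean oil and cow 1 on the mixture. On linseed oil they were both arrays of cow 5 and the control array of cow 15. More subunits lay low than high on these arrays, as given above. The counts per oil changed with the fit, and in the other fits the share of all probe sets called per oil was not counted. With array number 0 subunits were called on each oil. The 8 on rapeseed became 5 with quantile normalization or no block, the 2 on linseed became 4 with batch as a term and 1 in several other fits, and the 2 on the mixture became 9 with batch, 6 with the cow as a random block or array weights, 5 with 16 added before log2 and 1 in several other fits.

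NDUFB8 was the one subunit called on every oil, at 0.33 ± 0.06 on rapeseed, 0.35 ± 0.06 on soybean, 0.27 ± 0.07 on linseed and 0.30 ± 0.06 on the mixture. Its adjusted p was close to the threshold on linseed (0.0464) and the mixture (0.0494). NDUFB4 was called on rapeseed (0.43 ± 0.08), soybean (0.52 ± 0.08) and linseed oil (0.49 ± 0.08), and had 0.29 ± 0.08 on the mixture (adjusted p = 0.101). Its level on soybean oil was tightly grouped, from 8.93 to 9.08 in 7 cows, against 8.17 to 8.64 in the same cows on the control diet, so that there the periods did not overlap. NDUFS4 was called on rapeseed, soybean and the mixture, with 0.71 ± 0.11, 0.86 ± 0.11 and 0.78 ± 0.11, and had 0.38 ± 0.12 on linseed oil (adjusted p = 0.105).

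NDUFS4 had the smallest p of the family for a difference between oils. On linseed oil it ran from 7.46 over 7.65 to 7.91, against 6.96 over 7.26 to 7.92 in 6 of these cows on the control diet, and the periods overlapped. The control level of 7.92 was that of cow 5, whose arrays both stood apart and whose change was -0.03. The other linseed cows with both arrays changed by 0.23 to 0.60. On soybean oil NDUFS4 ran from 7.73 over 7.95 to 8.30, against 6.97 over 7.07 to 7.36 on the control diet, with no overlap. On rapeseed oil it ran from 7.45 over 7.89 to 8.43, against 6.54 over 7.19 to 7.72. On the mixture it ran from 7.47 over 8.02 to 8.53, against 7.04 over 7.26 to 7.47, so that the lowest oil array and the highest control array lay at about the same level. The difference in the change had an unadjusted p of 0.0469 and an adjusted p of 0.948 (limma's moderated F).

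No gene of the family was shown to respond differently to the 4 oils. None of the 36 passed the test of the change between oils, where 0% of all probe sets were called, and 1 of 36 and 486 of 10680 had an unadjusted p under 0.05. NDUFS5 came next, with changes of 0.26, 0.22, -0.12 and 0.24 on rapeseed, soybean, linseed and the mixture (unadjusted p = 0.0505). NDUFB6, with 0.37, 0.57, 0.19 and 0.24, had 0.0837, and NDUFC1, with 0.18, 0.90, -0.05 and 0.63, had 0.108. The adjusted p of all 3 was 0.948. For NDUFS5 on linseed oil, cows 5 and 15, each with an array apart, changed by -0.49 and -0.59. The other linseed cows changed by -0.05 to 0.25. NDUFS5 lay above the median of the other arrays on 6 of the 7 arrays that stood apart. A p that misses the threshold does not show that the oils acted alike, and the standard errors of these changes per oil were 0.10 to 0.11 for NDUFS5, 0.11 to 0.12 for NDUFB6 and 0.28 to 0.30 for NDUFC1.

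**Figure D5:**
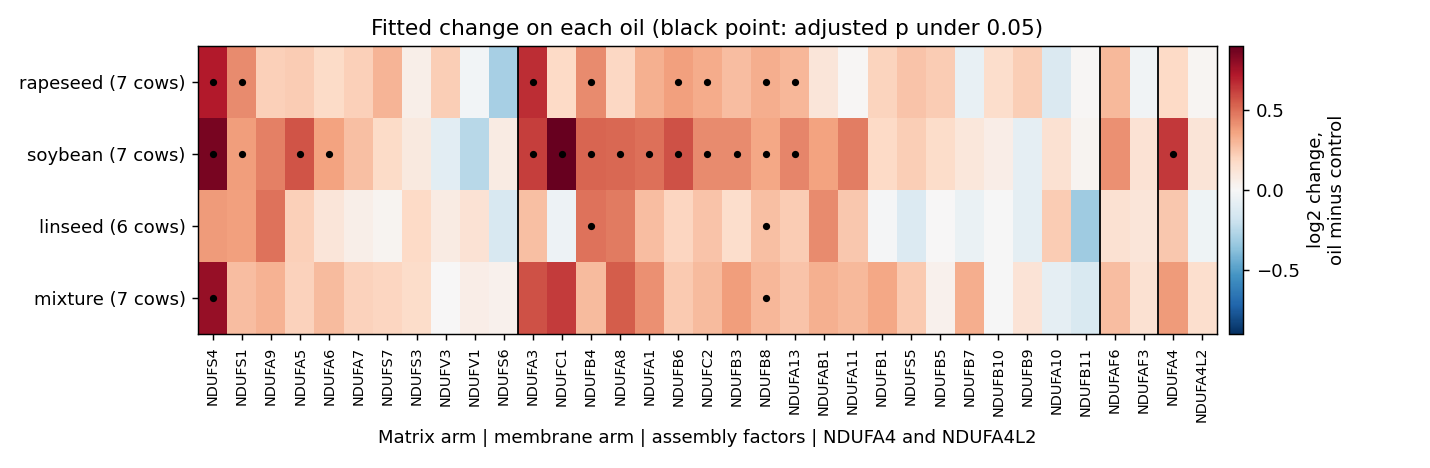
Fitted change of 35 genes on each oil as a colour (red for higher in the oil period, in log2 units), with genes grouped by arm and role and a black point at an adjusted p under 0.05. Red prevails in all 4 rows, and the 14 points among the soybean subunits contrast with 2 each on linseed oil and the mixture, although the difference between oils passed for no gene.

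In period I none of the 36 genes passed the test between the 4 oils, and 0% of all probe sets were called, with 0 of 36 and 277 of 10680 at an unadjusted p under 0.05. The smallest unadjusted p-values were those of NDUFAF3 (0.118), NDUFB11 (0.122), NDUFS4 (0.132) and NDUFA13 (0.140), with adjusted p-values of 0.9999. NDUFAF3 averaged 6.94 ± 0.22 on rapeseed, 7.03 ± 0.15 on soybean, 6.76 ± 0.26 on linseed and 6.93 ± 0.11 on the mixture (SD, n = 7 each). NDUFB11, a membrane arm subunit, averaged 7.38 ± 0.13, 7.38 ± 0.22, 7.15 ± 0.28 and 7.20 ± 0.18 on these oils in the same order. NDUFS4 averaged 7.91 ± 0.32, 7.99 ± 0.22, 7.68 ± 0.18 and 8.05 ± 0.43, and NDUFA13 averaged 8.17 ± 0.14, 8.23 ± 0.14, 8.05 ± 0.11 and 8.10 ± 0.11. In all 4 genes linseed oil had the lowest mean, by less than or about the spread between cows. In period II the former oils likewise gave 0 of 36 calls (0% of all probe sets), and 0 of 36 and 397 of 10680 were under 0.05 without adjustment.

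Other parts of the respiratory chain were called in the same fit. Of 32 measured genes of complexes II to V, 17 rose and 4 fell, against 18.8% of all probe sets called higher and 15.6% called lower, and with array number in the fit 6 were higher and 1 lower. The small complex III subunit UQCR10 (0.53 ± 0.06), ATP5MC1, which encodes the c subunit of the ATP synthase rotor (0.92 ± 0.10), and ATP5MF of the same enzyme (0.37 ± 0.05) rose. The complex III core protein UQCRC1 fell by 0.76 ± 0.11, and ATP5F1D, ATP5F1B and ATP5MC2 of ATP synthase also fell. Complex I had no subunit called lower. Whether the complexes differ was not tested.

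Fewer genes that serve complex I from outside were measured. Of 9 assembly genes without the NDUFAF name, 4 rose and 2 fell, against the same 18.8% and 15.6%. The 4 became 2 without dim probe sets or with batch as a term and 1 with array number, and the 2 became 0 with centring, without dim probe sets, with batch or with array number, and 1 with quantile normalization or without the 6 cows. TMEM126A (0.36 ± 0.10), TMEM186 (0.33 ± 0.10) and COA1 (0.43 ± 0.14) were among the risers, and ACAD9, an assembly factor that resembles acyl-CoA dehydrogenases, fell by 0.12 ± 0.04. ACAD9 was dim, at a mean of 2.12 in the oil period and 2.23 in the control period, as was ECSIT, the other one called lower, at 2.92 and 3.09. Of 11 measured genes of iron-sulfur cluster assembly, 3 rose and 0 fell, where 18.8% of all probe sets were called higher. They were ISCA2 (0.46 ± 0.11), FDX1 (0.16 ± 0.05) and the dim FDXR (0.37 ± 0.05), with a mean level of 2.32 in the oil period and 1.95 in the control period. The 3 became 5 with centring or quantile normalization, 1 with batch and 0 with array number. Among 5 measured regulators of mitochondrial biogenesis, TFB2M (0.31), PPARGC1A (0.30) and NRF1 (0.21) rose and YY1 fell by 0.47 ± 0.06. All probe sets had 18.8% called higher and 15.6% called lower. The 3 that rose became 1 without dim probe sets, without the 6 cows, with batch or with array number. PPARGC1A and NRF1 were dim, with mean levels under 3 in both periods.

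Of 16 measured markers of mitochondrial content, 2 rose and 4 fell, with a median change of 0.03, against 18.8% of all probe sets called higher and 15.6% called lower. The 4 became 2 with centring, quantile normalization, batch or dim probe sets left out, and 0 with array number. The import receptor TOMM20 (0.32 ± 0.06) and the phosphate carrier SLC25A3 (0.21 ± 0.05) rose, whereas the prohibitin PHB2 fell by 0.49 ± 0.09 and the cristae protein IMMT fell by 0.22 ± 0.06. Citrate synthase, CS, had 0.15 ± 0.12 (adjusted p = 0.334).

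Lists of cell type markers were counted in the same fit, in which 18.8% of all probe sets were called higher and 15.6% lower. Among 9 luminal epithelial genes 4 fell and 0 rose, with a median change of -0.47. Their summed intensity was 2111 to 6750 in the oil period and 2220 to 7676 in the control period. Of 9 endothelial genes 5 fell and 0 rose, with sums of 145 to 369 in the oil period and 195 to 531 in the control period. Of 8 fibroblast and matrix genes 5 fell and 0 rose, with sums of 3994 to 23554 and 3650 to 19262 for the oil and control periods. Of 8 macrophage genes 2 fell and 0 rose, and of 6 myoepithelial genes 1 fell, 1 or 2 genes per list at a background of 15.6% called lower. Their sums were 237 to 1082 and 1329 to 5083 in the oil period, and 270 to 2070 and 1460 to 5457 in the control period. Skeletal muscle, another tissue rich in mitochondria, had 2 of 7 markers higher and 0 lower, with a median change of 0.11. These genes were dim, with sums of 23.2 to 42.9 in the oil period and 22.9 to 34.4 in the control period, and the 2 called, MYL1 and MYH1, averaged 2.12 and 2.36 in the oil period and 1.74 and 2.05 in the control period. Of 7 adipocyte genes 2 rose and 2 fell, with sums of 549 to 4757 in the oil period and 583 to 4197 in the control period. Of 8 T and NK cell genes and of 5 erythrocyte genes, 1 rose and 1 fell in each list, and the 5 genes each of neutrophils and of B and plasma cells had 0 calls. Milk protein genes had 0 calls among 6 and a median change of -0.01. Of 12 genes of milk fat synthesis and secretion, 1 rose and 3 fell. The part of these cell types in the complex I result was not tested.

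Scaling changed the balance of calls over the array. Of all calls, 54.6% were higher as deposited and 71.9% when each array was centred on its median. With centring, 22 subunits rose and 0 fell, where 29.4% of all probe sets were called higher. The median change was 0.31 against 0.09 over all probe sets. NDUFV1 then had 0.04, on the other side of 0.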

How the data were processed

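Biotin-labelled RNA from each biopsy was measured on a 1-colour Affymetrix bovine array. Values for each probe set were deposited as linear intensities, made by the authors with RMA and GCRMA per the submitters' processing notes, which give no version or role for either. Log2 was taken here with no further scaling. Of 11495 probe sets, 112 were controls and 703 duplicated the values of another, which left 10680. RefSeq accessions named 6649 of these, and of several rows of a gene the one with the highest mean was used. Linear models in limma 3.58.1 (R 4.3.3) gave the changes, with a fixed block for each of 27 cows, and p-values were two-sided and Benjamini-Hochberg adjusted over all probe sets. Pairing rests on the labels, which name the animal of each array. Deviations of a cow's paired arrays correlated with a median of 0.18 (lowest -0.20, highest 0.68, and over 0.1 in 17 cows), and those of different cows with a median of 0.0085. The fits were tested on simulated data with independent noise. These held no batch, array order, arrays apart or correlation between genes, so the test does not cover those features.

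The members, the gene lists and the rule for full values (the 10 subunits and the assembly factors with the smallest p, and 4 genes per comparison of oils) were chosen with earlier results of these data known. From each pathway list, up to 4 genes with the smallest p were named; CS and the 3 ATP synthase genes that fell were added after their values were seen, as were NDUFV1, NDUFA4 and other members outside that rule. Array batch and number came from the array names. The number of arrays limits the precision. Sequences were not used here. The values of 1 subunit and of 1 pathway gene are not reported here by name, though both stay in the counts and medians.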

Additional observations from a re-analysis of the deposited data

Results flagged for a closer look

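Single cows lay far from the other cows of the same oil in 3 of the 64 sets of within-cow changes examined, which covered 15 genes and the median over the subunits on each oil. Chance alone flags about 1 in 20 such sets. The change of NDUFB3 on rapeseed oil was 0.56 in cow 27, against 0.16 to 0.31 in the other cows. The change of NDUFB6 on linseed oil was 0.86 in cow 7, against -0.06 to 0.19 in the others. The change of NDUFA3 on rapeseed oil was 0.065 in cow 19, against 0.60 to 0.91 in the others. For 0 members did every cow of one oil move one way and every cow of another oil the opposite way, which was not counted over all probe sets.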

How the results depend on the processing

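Of the 36 genes, the change in the oil period kept its direction and its side of the threshold in all 36 with 16 added before log2 and without merging, in 35 with no replicate block, in 34 with the cow as a random block, in 33 with quantile normalization or array weights, in 33 of the 34 tested with dim probe sets left out, in 32 without the 6 cows with an array apart and in 31 with centring. The counts were 27 with batch as a term, 12 within batch 1, 16 within batch 2 and 13 with array number. In the 2 alternatives chosen after seeing the data, they were 12 for the 5 cows whose arrays share a batch, and 11 for array number without the 6 cows. No subunit was called lower in any of these fits. For the counts per oil given below, the share of all probe sets called in the same fit was not counted.

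Centring gave 2 assembly factors higher, since NDUFAF3 then passed. It also gave 0 other assembly genes lower, 5 iron-sulfur genes higher and 2 content genes lower, and a change of 0.036 for NDUFV1. Quantile normalization gave 5 subunits higher on rapeseed, 1 on linseed and 1 on the mixture, with 1 other assembly gene lower, 5 iron-sulfur genes higher and 2 content genes lower. NDUFA4L2 was then -0.0046 and NDUFV1 0.00050. With 16 added, 5 subunits were higher on the mixture. Leaving out dim probe sets left 0 assembly factors higher, because NDUFAF6 was removed, 1 subunit higher on linseed and 1 on the mixture, 2 other assembly genes higher and 0 lower, 1 biogenesis regulator higher and 2 content genes lower. Without merging, 1 subunit was higher on the mixture.

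With no replicate block, the fit without pairing by cow, 18 subunits rose, where 17.7% of all probe sets were called higher. By oil, that fit gave 5 on rapeseed, 1 on linseed and 1 on the mixture. As a random block the cow gave 6 on the mixture, and array weights also gave 6. Without the 6 cows there was 1 subunit higher on linseed, 1 other assembly gene lower and 1 biogenesis regulator higher.

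With batch beside the cow the period effect is estimated by 5 cows whose arrays share a batch. Among them are cows 1 and 2, whose control arrays stood apart. The median subunit change in that fit was 0.41. There 0 assembly factors rose, and 4 subunits on linseed and 9 on the mixture. Other assembly genes had 2 higher and 0 lower, iron-sulfur genes 1 higher, biogenesis regulators 1 higher, and content genes 0 higher and 2 lower. NDUFA10 was -0.047, NDUFB10 -0.075, NDUFS6 0.14 and NDUFS7 -0.039. The fit on those 5 cows alone gave the same changes and median (0.41) with 0 subunits and 0 assembly factors called.

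Within batch 1, 4 subunits and 0 assembly factors rose. NDUFB1 was -0.094, NDUFB10 -0.32, NDUFB11 0.082, NDUFS5 -0.045, NDUFS6 0.29, NDUFV1 0.32 and NDUFV3 -0.090. Within batch 2, 4 subunits and 0 assembly factors rose, with NDUFAF3 at -0.15, NDUFB5 at -0.038, NDUFS3 at -0.10 and NDUFS7 at -0.13.

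With array number 8 subunits rose, and 0 on rapeseed, 0 on soybean, 0 on linseed and 0 on the mixture. Other assembly genes had 1 higher and 0 lower, complexes II to V 6 higher and 1 lower, iron-sulfur genes 0 higher, biogenesis regulators 1 higher, and content genes 1 higher and 0 lower. NDUFB1 was -0.012, NDUFB10 -0.11, NDUFB11 0.13, NDUFS5 -0.13, NDUFS6 0.25 and NDUFV1 0.86. Without the 6 cows as well, 0 subunits and 0 assembly factors rose, NDUFA11 was -0.054, NDUFAB1 -0.066, NDUFB11 0.16, NDUFS4 -0.023, NDUFS6 0.024 and NDUFV1 0.54. Apart from the fewer samples and dim genes named, the cause of these shifts was not tested. The tests between oils and within periods called 0 members under every alternative run. Intensity limits what can be said of NDUFAF6, NDUFA4L2 and NDUFA3, whose low values have no detection call here.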
